A study of Mus musculus with 12 samples.

Results

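The genes described here encode the precursors of 4 neuropeptides, namely proenkephalin (Penk1, now named Penk), thyrotropin-releasing hormone (Trh), neuropeptide Y (Npy) and galanin (Gal). They were taken as every probe whose symbol in the array annotation was one of these 4 names, which gave 1 probe each, so that 4 of the 21020 probes with a single gene symbol, and 4 of 16675 different symbols, are described. The arrays held RNA from the brain or the stomach of male heterozygous FVB mice, 6 to 8 weeks old, which all carried a transgene with luciferase under repeats of the peroxisome proliferator response element and a tk promoter. Mice received saline (mock) or 0.2 g/kg of chitosan, a polymer of glucosamine given here as its oligosaccharide lactate, under the skin, and the organs were taken on day 3. There were 4 groups of 3 arrays, each array from another mouse of its group, and nothing says if a brain and a stomach were taken from 1 mouse. The comparisons ask how chitosan administration changed transcript levels in each organ.

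Neuropeptides are made as longer precursors that are cut by prohormone convertases in the secretory granules of neurons and endocrine cells, and the mature peptides act on G protein-coupled receptors. Proenkephalin gives the enkephalins, opioid peptides that are abundant in striatal neurons, and thyrotropin-releasing hormone from the hypothalamus drives the pituitary release of thyrotropin. Neuropeptide Y is a widespread peptide of cortical interneurons, hypothalamic neurons that stimulate feeding, and sympathetic nerves. Galanin is found in hypothalamic and brainstem neurons and in the nerve plexus of the gut.

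Because the mice report the activity of a response element whose half-site is AGGTCA, the 250 bases before the start of each gene were read from RefSeq (GRCm38.p6), where 3 of the 4 genes had an entry. They are written 5′ to 3′ on the strand of the gene, with any match to AGGTCA or to TGACG, the core of the cAMP response element, in capitals. The window of Trh lies at chr6:92244651-92244900 on the minus strand, that of Npy at chr6:49822460-49822709 on the plus strand, and that of Gal at chr19:3414545-3414794 on the minus strand.
Trh: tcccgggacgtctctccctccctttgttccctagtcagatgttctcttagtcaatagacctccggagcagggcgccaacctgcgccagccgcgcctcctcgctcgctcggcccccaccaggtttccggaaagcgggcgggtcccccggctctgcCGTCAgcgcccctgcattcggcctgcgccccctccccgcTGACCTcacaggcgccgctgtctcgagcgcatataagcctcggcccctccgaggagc
Npy: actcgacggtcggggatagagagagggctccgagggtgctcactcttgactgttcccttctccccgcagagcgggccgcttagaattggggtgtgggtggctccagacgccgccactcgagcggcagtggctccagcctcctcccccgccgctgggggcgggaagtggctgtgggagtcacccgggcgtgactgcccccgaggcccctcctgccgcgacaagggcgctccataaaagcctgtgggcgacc
Gal: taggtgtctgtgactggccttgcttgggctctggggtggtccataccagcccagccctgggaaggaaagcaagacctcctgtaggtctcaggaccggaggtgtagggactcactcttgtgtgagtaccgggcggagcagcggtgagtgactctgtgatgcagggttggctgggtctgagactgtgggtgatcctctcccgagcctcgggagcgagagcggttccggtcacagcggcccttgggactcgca
The Trh window held 1 AGGTCA on the opposite strand, printed as its reverse complement from 57 bases before the gene start, and 1 TGACG, also on the opposite strand and printed from 96 bases before the start. The Npy and Gal windows held neither. Both strands were searched, and over 32851 promoter windows of this length 14% held AGGTCA and 17.8% held TGACG. No window of the 3 held AGGTCA repeated with 1 base between its copies, found in 0.0335% of all windows, the full element TGACGTCA, which contains TGACG and was found in 1.55%, or TATAAA, found in 12.4%. The element carried by the reporter is not a perfect repeat of AGGTCA, and the exact repeat searched here would not match it. The lack of a match therefore does not show that these windows lack such an element. These matches describe the sequence and are not measured binding.

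The deposited values were normalized intensities, for which depth has no meaning and the 3 arrays per group set the precision. The median of the arrays was 47 to 47.8, their lowest value was 34.3 to 35.3, and a probe was counted as above background when its group mean was over 2 times the lowest value of all arrays, or 68.7. The values were coarse, since an array held only 308 to 382 different intensities in the mock brain, 447 to 947 after chitosan in the brain, 579 to 884 in the mock stomach and 268 to 651 after chitosan in the stomach. The arrays of a group correlated at 0.796 to 0.951. Organ labels were checked on pan-neuronal markers, whose summed intensity was 8243 to 10860 in the mock brain and 898 to 1317 in the mock stomach, and on gastric gland markers, at 887 to 900.3 in the mock brain and 11550 to 18670 in the mock stomach.

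**Figure D1:**
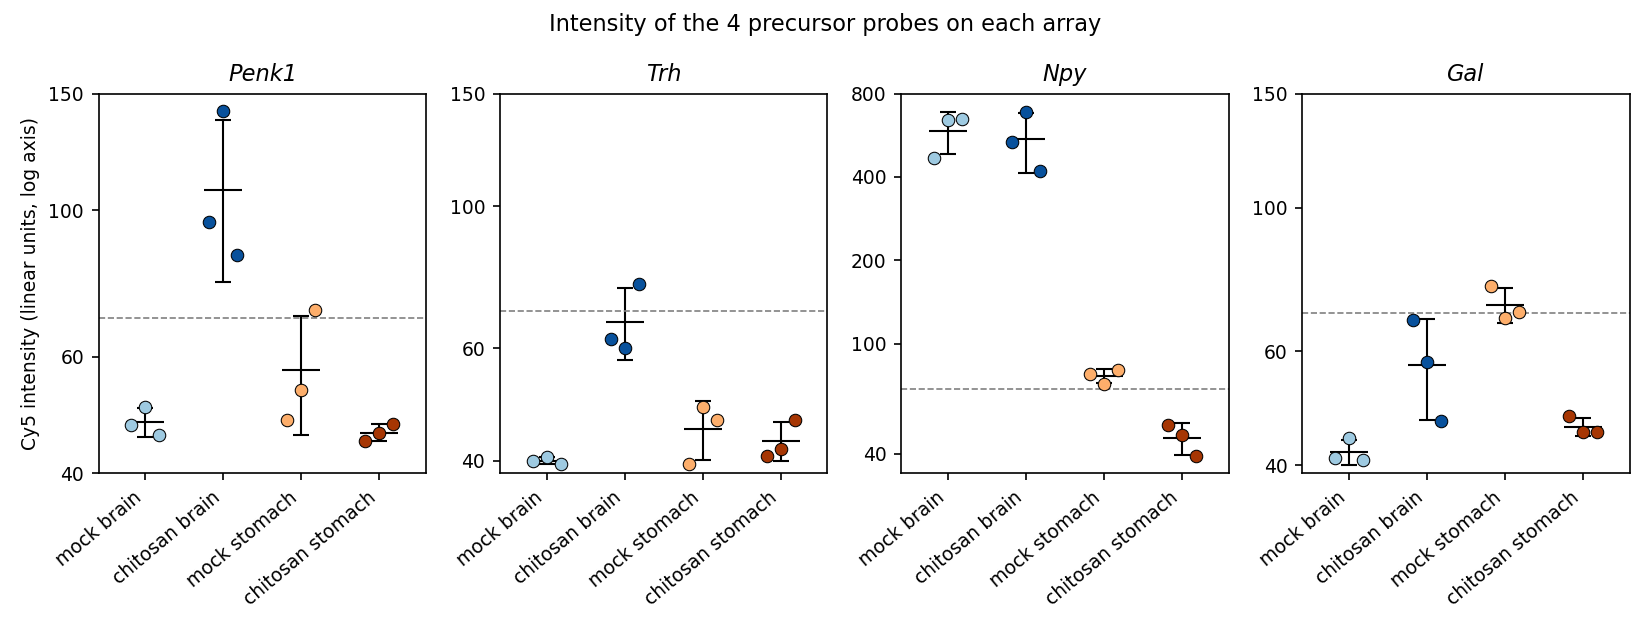
Normalized Cy5 intensity (linear units on a log axis) of the 4 precursor probes on each of the 12 arrays, by group; points are arrays, the long line is the mean, the error bar is 1 SD (n = 3), and the dashed line is the background level of 68.7. Penk1 stood above background on the 3 chitosan brain arrays, at 85.5 to 141, and Npy was bright in both brain groups, whereas Npy and Gal were dimmer on every chitosan stomach array than on any mock stomach array.

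In the brain, Penk1, Trh and Gal had higher intensities on every chitosan array than on any mock array, and Npy did not. The differences were 2.25-fold for Penk1, 1.65-fold for Trh and 1.36-fold for Gal as ratios of the group means. None of the 4 passed the limma test after adjustment over all probes, which called 0% of probes higher and 0% of probes lower in the brain. At an unadjusted p under 0.05, 1945 probes passed, and the methods' t-test with adjustment called 0.

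Penk1 read 47.4, 50.4 and 45.7 in the mock brain against 95.9, 141 and 85.5 in the chitosan brain. The mock values lay near the array median and below background, and all 3 chitosan values lay above background, with replicate 2 the highest. The means were 47.8 ± 2.40 and 107 ± 29.5 (SD, n = 3), and the log2 fold change was 1.13 (SE 0.19, 95% interval 0.69 to 1.58, limma adjusted p = 0.413). On the mock arrays 33.8 to 66.1% of all probes were dimmer than Penk1, and on the chitosan arrays 92.9 to 96.6% were. Its exact mock values were shared by 1753 to 2870 probes of the same array, and its chitosan values by 4 to 36. Since no mock array was above background, the difference was at least 1.47-fold when each mock value is replaced by the lowest intensity above background on its array.

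Trh read 39.9, 40.6 and 39.6 in the mock brain against 62.1, 60.1 and 75.7 in the chitosan brain. In the mock brain the probe was among the dimmest of the array, with 4.14 to 7.49% of probes below it, whereas in the chitosan brain 85.9 to 91.2% were below it. The means were 40.03 ± 0.509 and 65.9 ± 8.48 (SD, n = 3), and the log2 fold change was 0.71 (SE 0.091, 95% interval 0.50 to 0.93, limma adjusted p = 0.244). Only replicate 3 of the chitosan brain exceeded the background level. With a mock level so close to the lowest value on the arrays, a fold change of normalized intensity has little room to show the size of a change.

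Gal read 41, 44 and 40.8 in the mock brain against 67.1, 57.7 and 46.8 in the chitosan brain. All of these values were below background, and the chitosan arrays spread from close to the mock values to near the background level. The means were 41.9 ± 1.81 and 57.2 ± 10.2 (SD, n = 3), with a log2 fold change of 0.43 (SE 0.12, 95% interval 0.15 to 0.72, limma adjusted p = 0.749).

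Npy was the precursor with measurable signal on every brain array, at 468, 641 and 647 in the mock brain against 536, 689 and 422 in the chitosan brain. The ranges overlapped, and 99.0 to 99.4% of probes were dimmer. The means were 585 ± 101 and 549 ± 134 (SD, n = 3), with a log2 fold change of -0.11 (SE 0.41, limma adjusted p = 0.959). Its 95% interval ran from -1.06 to 0.85, and its SE was 0.21 with no intensity trend and 0.26 by the methods' t-test.

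The share of probes that did not overlap between the brain groups was 5% in the higher direction and 6.79% in the lower direction, against 3 of the 4 precursors higher and 0 lower. The 4 genes were chosen with earlier results of these data known, so this comparison is only a description. With 3 arrays against 3, an exact permutation test cannot give a two-sided p below 0.1. A difference of 2-fold in mean log2 intensity was reached by Penk1 alone of the 4, and by 0.207% of all probes in the higher direction and 0.16% in the lower. Without chitosan brain replicate 3, limma called Penk1 (adjusted p = 0.0383), Trh (0.0345) and Gal (0.0397), and 221 probes in all. The other 5 fits that left 1 brain array out called none of the precursors. Replicate 3 had the fewest different intensities of its group (447), but the mock brain arrays had fewer (308 to 382). Without chitosan brain replicate 2, the log2 fold change of Penk1 was 0.92 and no precursor reached 2-fold.

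In the stomach the order was different, with Npy and Gal lower on every chitosan array than on any mock array by the largest amounts. Npy was at 0.596 of its mock mean and Gal at 0.649, whereas Penk1 was at 0.803 and Trh at 0.959. No precursor passed the limma test, which called 0% of stomach probes higher and 0% lower. An unadjusted p under 0.05 was reached by 1571 probes, and the methods' t-test with adjustment called 3.

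Npy read 77.8, 71.5 and 80.3 in the mock stomach and 50.8, 47 and 39.3 in the chitosan stomach. All 3 mock values were above background and all 3 chitosan values were below it. The means were 76.6 ± 4.55 and 45.7 ± 5.87 (SD, n = 3), with a log2 fold change of -0.75 (SE 0.11, 95% interval -1.02 to -0.49, limma adjusted p = 0.172). The share of probes dimmer than Npy went from 90.3 to 92.1% in the mock stomach to 2.90 to 70.6% in the chitosan stomach, and the bound on the difference, found as for Penk1, was at least 1.07-fold.

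Gal read 75.8, 67.5 and 69 in the mock stomach and 47.6, 45 and 45.1 in the chitosan stomach. Replicates 1 and 3 of the mock stomach were above background, and no chitosan array was. The means were 70.8 ± 4.40 and 45.9 ± 1.47 (SD, n = 3), with a log2 fold change of -0.62 (SE 0.079, 95% interval -0.81 to -0.44, limma adjusted p = 0.123). Fitted with all 12 arrays in 1 model, the same difference had an adjusted p of 0.0400.

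Penk1 read 48.2, 53.5 and 70.6 in the mock stomach and 44.8, 46 and 47.5 in the chitosan stomach. The groups did not overlap, but replicate 3 alone of the mock stomach exceeded background, and the log2 fold change was -0.30 (SE 0.13, 95% interval -0.61 to 0.01, limma adjusted p = 0.853). Trh read 39.5, 48.6 and 46.3 in the mock stomach and 40.8, 41.8 and 46.4 in the chitosan stomach. Its groups overlapped, every value was below background, and the log2 fold change was -0.057 (SE 0.086, 95% interval -0.26 to 0.14, limma adjusted p = 0.905).

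Over the 4 precursors, 3 were lower without overlap in the chitosan stomach and 0 were higher, against 5.37% and 6.86% of all probes. As in the brain, the genes were chosen with earlier results known, so this is only a description. None reached 2-fold, which 0.394% of probes did in the lower and 0.127% in the higher direction. Penk1 and Gal were non-overlapping in both organs with opposite directions, higher in the chitosan brain and lower in the chitosan stomach, as were 0.809% of all probes. In these bulk samples, fewer cells of a type and less RNA per cell cannot be told apart.

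**Figure D2:**
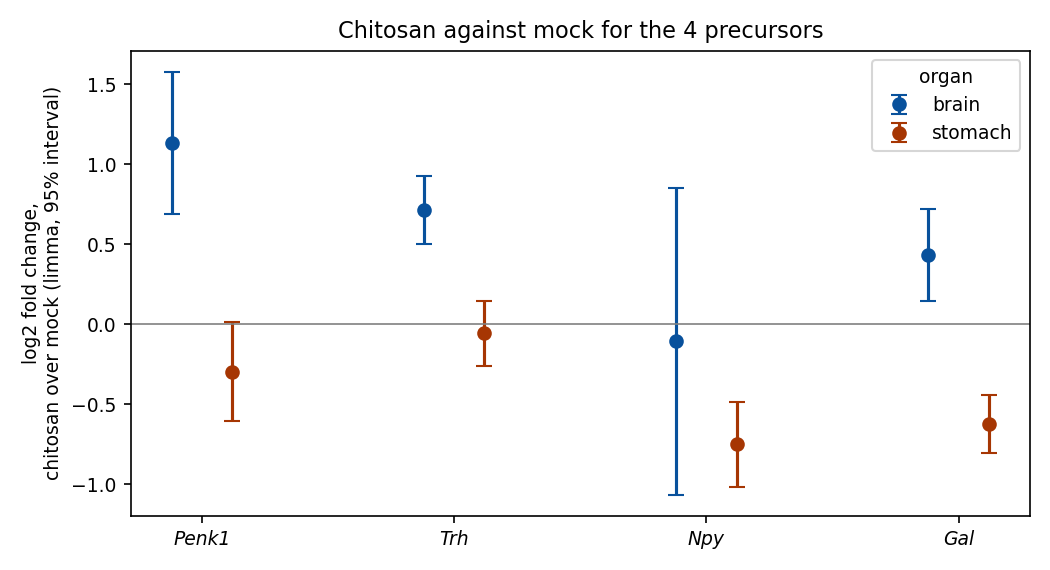
Log2 fold change of chitosan over mock for each precursor, with the 95% interval of the limma fit, in the brain (blue) and the stomach (red-brown); n = 3 arrays per group. Penk1, Trh and Gal lay above 0 in the brain (1.13, 0.71 and 0.43), and Npy and Gal lay below 0 in the stomach (-0.75 and -0.62).

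The 2 responses were compared by an interaction term over all 12 arrays, written as the stomach response minus the brain response. It was -1.43 for Penk1 (SE 0.25, 95% interval -1.98 to -0.89, limma adjusted p = 0.0464) and -1.06 for Gal (SE 0.15, 95% interval -1.39 to -0.72, adjusted p = 0.0192). Both passed the threshold of 0.05, in the lower direction, as did 0.227% of all probes, while 0.0234% passed in the higher direction. For Trh it was -0.77 (SE 0.14, adjusted p = 0.0513) and for Npy -0.65 (SE 0.42, adjusted p = 0.639). The call of Penk1 was lost when any of 10 of the 12 arrays was left out (adjusted p of 0.0188 to 0.146 over the 12 fits) and held without chitosan brain replicate 2 or 3. That of Gal was lost in 6 of the 12 fits (0.00568 to 0.0767), namely those without 1 of the mock brain arrays, mock stomach replicate 1, chitosan brain replicate 1 or chitosan stomach replicate 2. All 12 values kept their sign for both genes. With the replicate number as a block within each organ, neither call held (adjusted p = 0.117 for Penk1 and 0.105 for Gal), and 0 probes passed. That block joined the mock and chitosan arrays of the same number. A check of same-numbered arrays, described below, did not pair them. It did pair the chitosan brain with the chitosan stomach, which no interaction fit joined, so it does not settle whether a block was needed.

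Between the organs of mock mice, Npy was lower in the stomach and Gal was higher. The stomach minus brain difference was -2.92 for Npy (SE 0.27, limma adjusted p = 0.000752) and 0.75 for Gal (SE 0.072, adjusted p = 0.000800), in a comparison that called 2.83% of probes lower and 3.54% higher. Gal was below background on every mock brain array and above it on 2 of 3 mock stomach arrays, so no fold is bounded. Penk1 (0.25, adjusted p = 0.403) and Trh (0.16, adjusted p = 0.339) had no called difference. In chitosan mice, Npy was lower in the stomach by a log2 difference of -3.57 (SE 0.40, adjusted p = 0.00775), Penk1 by -1.19 (SE 0.19, adjusted p = 0.0252) and Trh by -0.61 (SE 0.10, adjusted p = 0.0297), where 1.44% of probes were called lower and 0.939% higher. With the chitosan stomach below background, the bound was at least 7.54-fold for Npy and at least 1.47-fold for Penk1. Gal differed by -0.30 (SE 0.12, adjusted p = 0.438).

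The organ calls of chitosan mice rested on few arrays, whereas those of Npy and Gal in mock mice held in all 6 fits that left 1 array out. Penk1 lost its call without chitosan brain replicate 1 or chitosan stomach replicate 1 or 2. Trh also lost it without chitosan brain replicate 2, and Npy lost it without chitosan stomach replicate 1 or 2 (adjusted p = 0.0588 and 0.115). Gal gained a call without chitosan brain replicate 3 (adjusted p = 0.0457).

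The groups were ordered by mean intensity, although groups below background have no reliable order. Penk1 was highest in the chitosan brain, then the mock stomach, the mock brain and the chitosan stomach, and only the first step had ranges that did not overlap. Trh ran from the chitosan brain to the mock stomach, the chitosan stomach and the mock brain, and the 2 stomach groups overlapped. Npy ran from the mock brain to the chitosan brain, the mock stomach and the chitosan stomach, where only the brain groups overlapped and the step from the chitosan brain to the mock stomach was 7.17-fold. Gal was highest in the mock stomach, followed by the chitosan brain, the chitosan stomach and the mock brain, with overlap between the chitosan brain and the chitosan stomach.

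**Figure D3:**
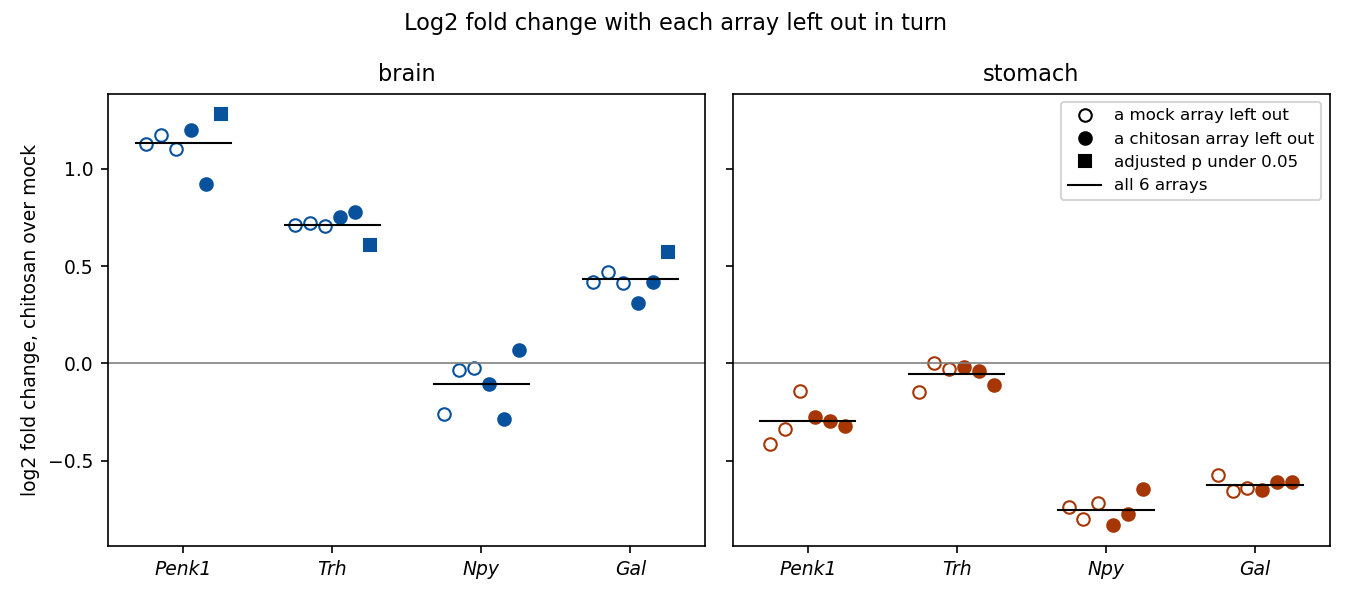
Log2 fold change of chitosan over mock for each precursor with 1 of the 6 arrays of an organ left out; open points are fits without a mock array, filled points fits without a chitosan array, squares fits with a limma adjusted p under 0.05, and lines the value with all 6 arrays. Penk1 stayed between 0.92 and 1.28 in the brain, and the squares of Penk1, Trh and Gal are the fits without chitosan brain replicate 3.

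The genes whose pattern over the 12 arrays was nearest to a precursor were found by the root mean square (RMS) difference of centred log2 intensities, among 4134 candidate probes above background in a group. Trh was above background in no group and was left out. For Penk1 they were Gng4, a G protein gamma subunit (RMS 0.244), Gria1, an AMPA-type glutamate receptor subunit (0.258), and Lmbrd1, a lysosomal membrane protein (0.275). Gng4 read 50.1, 46.6 and 50.6 in the mock brain against 92.2, 89.7 and 75.7 in the chitosan brain. The Gria1 probe that resembled Penk1 was a dimmer one of its 3 probes, and the brightest averaged 222 in the mock brain against 216 in the chitosan brain, so the probes of this gene disagreed.

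For Npy the nearest were Ncdn, encoding neurochondrin (RMS 0.318), Ppp2r2b, a regulatory subunit of protein phosphatase 2A (0.323), and Ntrk2, the receptor of brain-derived neurotrophic factor (0.338). Ncdn departed from Npy within the brain, with averages of 500.2 in the mock brain against 796 in the chitosan brain, without overlap, and averaged 74.6 in the mock stomach. For Gal they were Ndst2, a heparan sulfate sulfotransferase (RMS 0.102), Aaas, a nuclear pore protein (0.107), and Chchd5 (0.123), all close to background. Aaas read 74.2, 67.8 and 71.2 in the mock stomach and 58, 43.9 and 44 in the chitosan stomach, without overlap.

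Of the 13 receptors of these peptides on the array, only the galanin receptor Galr2 averaged above background in an organ, and it did so in the chitosan brain through 1 array. Galr2 read 50.1, 74.8 and 50.6 in the mock brain against 48.6, 45.1 and 193 in the chitosan brain, so replicate 3 alone was high. The opioid receptors Oprm1, Oprd1 and Oprk1, the thyrotropin-releasing hormone receptors Trhr and Trhr2, and the neuropeptide Y receptors had group means below background in both organs. In the brain 6 receptors were higher and 7 lower in the chitosan group, with none free of overlap, where 5% and 6.79% of all probes were. In the stomach 7 were higher and 6 lower. The pancreatic polypeptide receptor Ppyr1 was higher without overlap, at 46.9 and 51.6, and Oprk1 was lower without overlap, at 46.5 and 44.2. Both were below background, and 6.86% and 5.37% of all stomach probes were higher and lower without overlap. No receptor passed the limma test.

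Among 37 measured precursors of other neuropeptides and peptide hormones, 18 were higher and 19 lower in the chitosan brain, with a median log2 fold change of -0.00045 against -0.0092 over all probes. Without overlap, 4 were higher and 2 lower, where 5% and 6.79% of all probes were. None of the 37 passed the limma test in either organ. Of the 10 above background in the mock or the chitosan brain, 9 were higher and 1 lower, with a median of 0.23. Over all probes above background there, 1747 were higher and 1773 lower. A gene passed this filter through either group. Nts, Tac2 and Nmb were above background in the chitosan brain alone, so the filter fixed their direction. The split of 9 to 1 is therefore no support for a shift of these precursors.

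Nts, the neurotensin precursor, read 45.3, 47.8 and 46.6 in the mock brain against 78.8, 79.0 and 56.5 in the chitosan brain (limma adjusted p = 0.673). Cartpt, which encodes the cocaine- and amphetamine-regulated transcript, averaged 137 ± 18.7 in the mock brain against 180 ± 14.4 (SD, n = 3) in the chitosan brain. Both were non-overlapping, as Penk1, Trh and Gal were. Tac2, encoding neurokinin B in mice, and Nmb, encoding neuromedin B, averaged 60.3 and 68.5 in the mock brain against 80.2 and 87 in the chitosan brain, with overlap.

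In the chitosan stomach 17 of these precursors were higher and 20 lower, with a median of -0.0093 against 0.013 over all probes, and 3 were lower and 0 higher without overlap, where 5.37% and 6.86% of all probes were. Sst, encoding somatostatin of the gastric D cells, read 138, 268 and 166 in the mock stomach and 64.3, 49.3 and 48.7 after chitosan, which gave -1.77 on the log2 scale (SE 0.30, limma adjusted p = 0.241). Sst was the only one of the list to reach 2-fold. Pthlh, encoding parathyroid hormone-related protein, averaged 82.3 and 62.4 without overlap, while Nmu, encoding neuromedin U, averaged 212 and 257, and Cartpt 158 and 134, both with overlap.

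**Figure D4:**
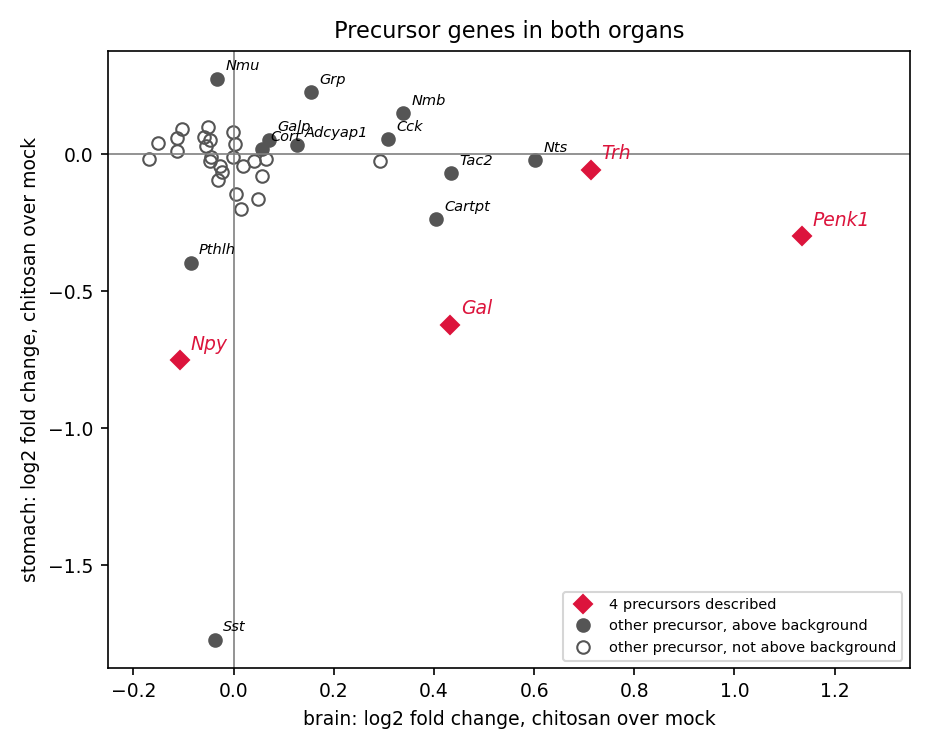
Log2 fold change of chitosan over mock in the brain (horizontal axis) and in the stomach (vertical axis) for the 4 precursors (red diamonds) and 37 other precursor genes, filled where the gene was above background in an organ and open where it was not. Penk1 and Trh lay farthest to the right, at 1.13 and 0.71, and Sst lay lowest, at -1.77 in the stomach.

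The machinery that makes and destroys the peptides was measured beside them. Of 16 precursor processing genes, 6 were higher and 10 lower in the chitosan brain, and Pcsk2 (prohormone convertase 2) averaged 336 in the mock brain against 362 in the chitosan brain, Cpe (carboxypeptidase E) 233 and 263, Scg5 (the chaperone 7B2 of Pcsk2) 1363 and 1398, and Furin 130 and 119. All of these overlapped, and 1 of the 16 was lower without overlap, against 6.79% of all probes. In the stomach 11 were higher and 5 lower, and 2 were lower without overlap, against 5.37% of all probes. Of the 5 processing genes above background in the stomach, 1 was higher and 4 lower, with a median of -0.59. A gene passed this filter through either group, and Pam did so through the mock stomach alone, which fixed its direction. Over all 16 the median was 0.019, so the split is not a fall of the list. Over all probes above background in the stomach, 1809 were higher and 1868 lower. Pam, the enzyme that amidates the carboxyl end of neuropeptide Y, galanin and thyrotropin-releasing hormone, averaged 77.1 and 50.3 there, and Scg5 104 and 69.7. Furin averaged 225 and 126 and Cpe 72.3 and 121, with overlap.

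Of 15 peptide degrading enzymes, 7 were higher and 8 lower in the chitosan brain and 8 higher and 7 lower in the chitosan stomach. Of those above background, 1 was higher and 3 lower in the brain, and 1 higher and 4 lower in the stomach. A gene passed this filter through either group, and Anpep did so through the mock stomach alone, which fixed its direction. Nln (neurolysin), which cleaves neurotensin, averaged 93.1 in the mock brain against 78.1 in the chitosan brain without overlap. It was the only 1 of the 15 without overlap there, where 5% of all probes were higher and 6.79% lower without overlap. Of 18 secretory granule proteins, 10 were higher and 8 lower in each organ. Of 20 genes of the CREB pathway and the immediate early response, 7 were higher and 13 lower in the chitosan brain, and 14 were higher and 6 lower in the chitosan stomach. Without overlap in the brain, 2 were higher and 1 lower, where 5% and 6.79% of all probes were. The lower one was the activity-regulated Arc, which averaged 116 and 78.0. None passed the limma test.

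Markers of some cells of the brain and the stomach moved with the groups and others did not, and their part in the results was not tested. In the brain, 14 of 17 striatal neuron markers were higher and 3 lower in the chitosan group, and their summed intensity was 1229 to 1291 on the mock arrays and 1431 to 1490 on the chitosan arrays. Rxrg, a retinoid X receptor of striatal neurons, read 45.3, 47.8 and 45.7 and then 79.7, 67.2 and 94, and Drd1a, the dopamine D1 receptor, averaged 68.1 and 89.1 with overlap. Of 13 cortical excitatory neuron markers, 6 were higher and 7 lower, with a median of -0.0050. Their sum was 2551 to 3347 in the mock brain against 1764 to 2306 in the chitosan brain, where Nrgn (neurogranin), the member with the largest difference in intensity, averaged 1225 and 585, whereas Slc17a7, a vesicular glutamate transporter, averaged 67.4 and 86.6 with overlap.

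Hypothalamic neuron markers were split, with 9 of 19 higher and 10 lower in the chitosan brain, and their sums of 939 to 1198 and 1135 to 1286 overlapped. Nnat (neuronatin) read 92.3, 113 and 87.7 in the mock brain against 324, 271 and 343 in the chitosan brain, and Gsx1 averaged 46.5 and 70.1, both without overlap. Dlk1 averaged 130 and 47.7 with overlap. Of 15 cortical interneuron markers, 10 were higher and 5 lower. Without overlap, 3 were higher and 0 lower, where 5% and 6.79% of all probes were. Only 2 of the 15 were above background in the brain, 1 higher and 1 lower. The sums of the 15, 1510 to 1790 and 1044 to 1660, overlapped and held mostly Pvalb (parvalbumin), which averaged 976 and 596 with overlap. No pituitary marker was above background in the brain.

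In the stomach, 15 of 19 gastric gland markers were lower in the chitosan group, 11 of them without overlap, against 5.37% of all probes, and their sum was 11550 to 18670 on the mock arrays and 2112 to 4409 on the chitosan arrays. Of 12 gastric endocrine markers, 9 were higher and 3 lower, with a median of 0.044, but Ghrl (ghrelin) alone was above background and averaged 2970 and 325, so that the sums were 3184 to 3897 and 772 to 921. Smooth muscle markers went the other way, from 9839 to 11050 on the mock arrays to 15940 to 19440 on the chitosan arrays. Enteric neuron markers summed to 610.1 to 658 and 607 to 655, which overlapped, but all except Dbh averaged below background. Dbh averaged 69.3 and 50.4, with overlap (log2 fold change -0.44, limma adjusted p = 0.853). Of 16 pan-neuronal markers, 7 were higher and 9 lower. Without overlap, 1 was higher and 1 lower, where 6.86% and 5.37% of all probes were. Uchl1 averaged 73.9 and 50.7, Syn1 60.3 and 73.0, and Elavl3 262 and 365. The part of these shifts in the lower Npy and Gal intensities was not tested.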

How the data were processed

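RNA of 12 organs (4 groups of 3 mice) was hybridised, with Cy5 label, to 1-colour mouse whole genome oligonucleotide arrays. The deposited intensity values are linear and had been normalized by the authors with limma after local background subtraction and removal of control and low-quality spots in GenePix; which normalization was used was not stated. They were taken to log2 and fitted with limma 3.58.1 (R 4.3.3; lmFit, eBayes with an intensity trend), 6 arrays for each comparison and 12 for the interaction, with Benjamini-Hochberg adjustment over all 29922 probes and a threshold of 0.05. The fits were tested on simulated data. Symbols came from the platform annotation (21020 probes with 1 symbol, and 8902 with none or several, which were left without a name).

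The 4 genes and the 19 gene lists (299 of 331 entries measured, by the brightest probe of a gene) were chosen with earlier results of these data known. From a list, up to 4 genes per organ were named, by size of log2 fold change among those above background, with every receptor above background and the 3 genes nearest to each precursor. Receptors below background were added to the named genes later, with their values known. Alternative fits changed the samples in the fit, variance prior, test, normalization, background, floor, filter and block, added the number of different intensities as a covariate, or left out an array.

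Same-numbered arrays were checked over 2223 bright probes. Their deviations correlated at 0.213, 0.536 and 0.702 between the chitosan brain and the chitosan stomach, which by the rule used (every pair over 0.1) pairs them. The blocked fit changed no call there. In the other 3 comparisons, which include mock with chitosan in each organ, at least 1 pair was below 0.1. The block of the interaction joined mock and chitosan arrays of the same number within an organ, and it ended both calls. No interaction fit joined the chitosan brain with the chitosan stomach arrays.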

Additional observations from a re-analysis of the deposited data

Results flagged for a closer look

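The responses of Penk1 and Gal differed between the organs by a test of the difference itself (limma interaction over 12 arrays), but the calls depended on single arrays. With 1 array left out, the call of Penk1 was lost in 10 of 12 fits and that of Gal in 6 of 12. Penk1 also lost it with no intensity trend (limma adjusted p = 0.0535) and with a floor at the 20th percentile (0.0518). Both genes were chosen with earlier results of these data known. For Penk1, the response in the stomach minus that in the brain was -1.43 on the log2 scale (adjusted p = 0.0464), with higher values on 3 of 3 chitosan arrays in the brain and lower values on 3 of 3 in the stomach than on any mock array. For Gal it was -1.06 (adjusted p = 0.0192), with the same directions on the same numbers of arrays. With the replicate number as a block within each organ, neither passed (adjusted p = 0.117 and 0.105). The check of same-numbered arrays did not pair mock with chitosan, but it did pair the chitosan brain with the chitosan stomach. No interaction fit joined those, so the check does not settle whether a block was needed. Except for Penk1 in the chitosan brain, most of these values were below the background level of 68.7.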

How the results depend on the processing

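Of 187 values of the 4 precursors under the other settings, 174 kept their direction and side of the threshold, 8 lost a call, 5 gained one and 0 changed direction; Trh, dimmer than the median probe, had no value with the filter on dim probes. The number of different intensities as a covariate gave Trh in the brain 0.83 (adjusted p = 0.0318) and interactions of -1.15 for Penk1 (0.124), -0.97 for Trh (0.0258) and -0.92 for Gal (0.0584). All 12 arrays in 1 model gave Gal in the stomach -0.62 (0.0400). The methods' t-test left the organ difference in chitosan mice at -1.19 for Penk1 (0.173) and -0.61 for Trh (0.192). The Penk1 interaction of -1.43 had an adjusted p of 0.0535 with no intensity trend, 0.0518 with a floor at the 20th percentile and 0.117 with the replicate block; that of Gal, -1.06, had 0.105 with the replicate block. The Trh interaction was -0.77 (0.0424) with arrays centered on the median and -1.53 (0.0325) with the lowest intensity subtracted. That subtraction also put 2 precursors at 2-fold in the brain (Penk1 and Trh) and 2 in the stomach (Npy and Gal). The replicate block changed no other call, and in no comparison did every array correlate best with the array of its own number. The cause of these changes was not tested.

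With 1 array left out, the brain response was 0.92 to 1.28 for Penk1, 0.61 to 0.78 for Trh, -0.28 to 0.069 for Npy and 0.31 to 0.57 for Gal, and 0 to 1 precursors reached 2-fold; without chitosan brain replicate 3, Npy turned to 0.069. The stomach response of Trh was -0.15 to 0.0041, positive without mock stomach replicate 2. The organ difference in mock mice was 0.096 to 0.25 for Trh, called without mock stomach replicate 1 (adjusted p = 0.0363). In chitosan mice it was -1.33 to -0.98 for Penk1, -0.68 to -0.51 for Trh, -3.74 to -3.39 for Npy and -0.44 to -0.18 for Gal. The interaction was -1.58 to -1.22 for Penk1, -0.86 to -0.67 for Trh and -1.19 to -0.93 for Gal.

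Counts of called probes moved more. In the brain 0 became 3 with all 12 arrays in 1 model, 125 with the covariate and 221 without chitosan brain replicate 3; in the stomach 0 became 95, 326 with the covariate, 29 with no trend and 3 with the t-test. In mock organs 1908 became 1183 with the t-test and 1247 with the block. In chitosan organs 712 became 1206 with all arrays, 389 with the t-test, 2271 with the covariate and 0 to 1128 with 1 array left out. The interaction count of 75 became 549 with the covariate, 0 with the replicate block and 8 to 212 with 1 array left out. Most precursor values lie within 2 times the lowest intensity, where log2 fold changes are compressed.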
